A study of Rattus norvegicus with 56 samples.

Results

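The choroid plexus genes described here are 10 rat genes, Ttr, Enpp2, Igf2, Aqp1, Folr1, Otx2, Sostdc1, Kcnj13, Kl and Clic6, that are commonly used to mark the epithelium of the choroid plexus. They were taken by name: every non-control probe whose accession maps through RefSeq to 1 of these symbols was kept. This gave 13 probes, out of 45598 probes and 16581 named genes on the array. All 10 genes had a probe. All 10 were bright enough to be tested in hippocampus, and 8 in parietal cortex, where Kl and Clic6 were well above background in 1 of 24 animals each. Igf2, Aqp1 and Otx2 had 2 probes, and each gene is described by the probe with the higher mean signal unless stated.

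The choroid plexus is a sheet of epithelium and vessels that lies inside the brain ventricles and secretes cerebrospinal fluid. Its epithelial cells move ions and water from blood to the ventricle and release carrier proteins and growth factors into the fluid. The plexus of the lateral ventricle lies beside the hippocampus, whereas the outer face of the cortex is covered by the leptomeninges. Among the secreted products, Ttr encodes transthyretin, which carries thyroid hormone and the retinol-binding protein, Enpp2 encodes autotaxin, which makes lysophosphatidic acid and is also made by oligodendrocytes, and Igf2 is a growth factor also made by leptomeningeal cells. Sostdc1 is a secreted inhibitor of BMP and Wnt signaling. Aqp1 is a water channel, Kcnj13 an inwardly rectifying potassium channel, Clic6 a member of the intracellular chloride channel family, Folr1 a folate receptor that brings folate into the fluid, and Kl encodes klotho, a co-receptor for FGF23 that is also shed into the fluid. Otx2 is a homeodomain transcription factor that the plexus needs for its development and upkeep.

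Expression was measured on Agilent arrays in the hippocampus (HIPP) and parietal cortex (PCTX) of 24 male Long-Evans rats killed 48 h after intermittent theta burst stimulation (iTBS), in which short bursts of magnetic pulses are delivered through the skull, or after sham treatment with the coil away from the head. Young rats (Y) were 6 to 7 months old. Aged rats were 26 to 27 months old and were called unimpaired (AU) or impaired (AI) from how they learned a water maze. Sham treatment was given to 4 young, 4 AU and 4 AI rats (Y_Sham, AU_Sham and AI_Sham) and iTBS to 4 young, 5 AU and 3 AI rats (Y_iTBS, AU_iTBS and AI_iTBS), each rat giving both regions. Every animal, sham animals included, received isoflurane and Dexmedetomidine for the procedure and Antisedan afterwards, so no group here was free of anesthesia. The tissue was a bulk dissection in which neither plexus nor ventricle wall was sampled on purpose, and in such RNA fewer cells of a type and less RNA per cell cannot be told apart.

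Of the 56 arrays, 6 were technical repeats whose values were averaged with those of the original array. On these repeats the 10 genes differed from the original by a median of 0.13 on the log2 scale over 60 pairs of values, the highest difference being 2 for Kcnj13 in a cortex where it was close to background, and Ttr differed by at most 0.16. A seventh repeat, labelled AI_iTBS 2 cortex, stood apart. Over the 500 most variable probes it correlated at r = 0.758 with the first array of its own animal, the sixteenth best match (rank 16 of 24), and at r = 0.899 with AI_Sham 2 cortex, rank 1. Its Ttr signal was 5.61 against 3.94 on the first array. It was left out of the values below, and averaging it in moved no count of called genes by more than 1.5 times. A further array whose title and description name different animals was placed in no group. All values below are normalized log2 signals on which 0 is the mean of an array, so that a difference of 1 is a 2-fold difference, and levels of different genes are not compared because probes differ in brightness. The share of probes well above background ranged from 59.3 to 69.7% over the arrays, and no spot of the 13 probes was saturated.

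The stretches of 250 bases that precede the transcription start were at hand in RefSeq (GRCr8) for 5 of the 10 genes. Those of Aqp1 (chr4:85812534-85812783, plus strand) and Kcnj13 (chr9:95518987-95519236, minus strand) are shown because these are the channel genes that varied together with different partners in the 2 regions, as described further on.
Aqp1: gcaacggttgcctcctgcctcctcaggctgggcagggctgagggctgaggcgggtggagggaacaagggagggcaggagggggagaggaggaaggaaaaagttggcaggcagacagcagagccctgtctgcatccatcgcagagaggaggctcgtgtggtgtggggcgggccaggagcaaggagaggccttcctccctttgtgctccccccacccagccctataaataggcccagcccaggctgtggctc
Kcnj13: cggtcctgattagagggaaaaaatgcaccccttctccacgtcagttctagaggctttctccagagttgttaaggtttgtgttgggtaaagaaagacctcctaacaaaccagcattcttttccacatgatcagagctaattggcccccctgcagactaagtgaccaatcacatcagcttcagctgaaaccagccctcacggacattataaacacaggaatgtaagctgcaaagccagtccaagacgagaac
Both sequences are given 5′ to 3′ along the gene. They were searched on both strands for TAATCC, the core word of homeodomain factors of the Otx2 kind, and for TGTTTAC, a forkhead word. Capitals would have marked a match, and neither word occurred in these or in the other promoters of the 5 genes. With no match there was no overlap between the words. TAATCC was present in 6.3% and TGTTTAC in 3.2% of 33469 rat promoters of the same length.

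The signal of Ttr varied widely between animals within the groups. In hippocampus its signal was 8.97, 6.96, 7.15 and 7.32 in Y_Sham and 6.90, 7.01, 4.78 and 7.07 in Y_iTBS. It was 5.02, 6.20, 7.75 and 7.42 in AU_Sham and 8.30, 11.08, 6.14, 5.03 and 6.57 in AU_iTBS. It was 10.69, 7.16, 9.76 and 7.50 in AI_Sham and 9.11, 6.26 and 8.21 in AI_iTBS. The highest animal (AU_iTBS 2) and the lowest (Y_iTBS 3) differed by 6.3, or 78.8-fold, and the highest animals did not share a treatment: AU_iTBS 2 was followed by AI_Sham 1 and AI_Sham 3. The group means ran from 8.78 ± 1.72 (SD, n = 4) in AI_Sham through 7.86 ± 1.46 (n = 3) in AI_iTBS, 7.60 ± 0.93 (n = 4) in Y_Sham, 7.42 ± 2.36 (n = 5) in AU_iTBS and 6.6 ± 1.25 (n = 4) in AU_Sham to 6.44 ± 1.11 (n = 4) in Y_iTBS. Every pair of neighbors in this order differed by less than the SD of either group.

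In cortex the Ttr signal was 5.43, 5.02, 5.15 and 5.83 in Y_Sham and 7.07, 5.63, 5.48 and 6.84 in Y_iTBS. It was 5.77, 5.56, 5.54 and 6.44 in AU_Sham and 9.43, 3.89, 3.32, 4.93 and 4.46 in AU_iTBS. It was 4.04, 5.75, 6.34 and 8.20 in AI_Sham and 5.37, 3.94 and 5.67 in AI_iTBS. Here AU_iTBS 1 and AI_Sham 4 were highest, with hippocampal values of 8.30 and 7.50. The lowest and highest animals differed 69.1-fold. The group means ran from 6.26 ± 0.82 (n = 4) in Y_iTBS through 6.08 ± 1.72 (n = 4) in AI_Sham, 5.83 ± 0.42 (n = 4) in AU_Sham, 5.36 ± 0.36 (n = 4) in Y_Sham and 5.21 ± 2.44 (n = 5) in AU_iTBS to 4.99 ± 0.92 (n = 3) in AI_iTBS. AU_Sham and Y_Sham differed by more than the SD of either, and the other neighbors in this order by less than the SD of at least 1 of the groups.

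**Figure D1:**
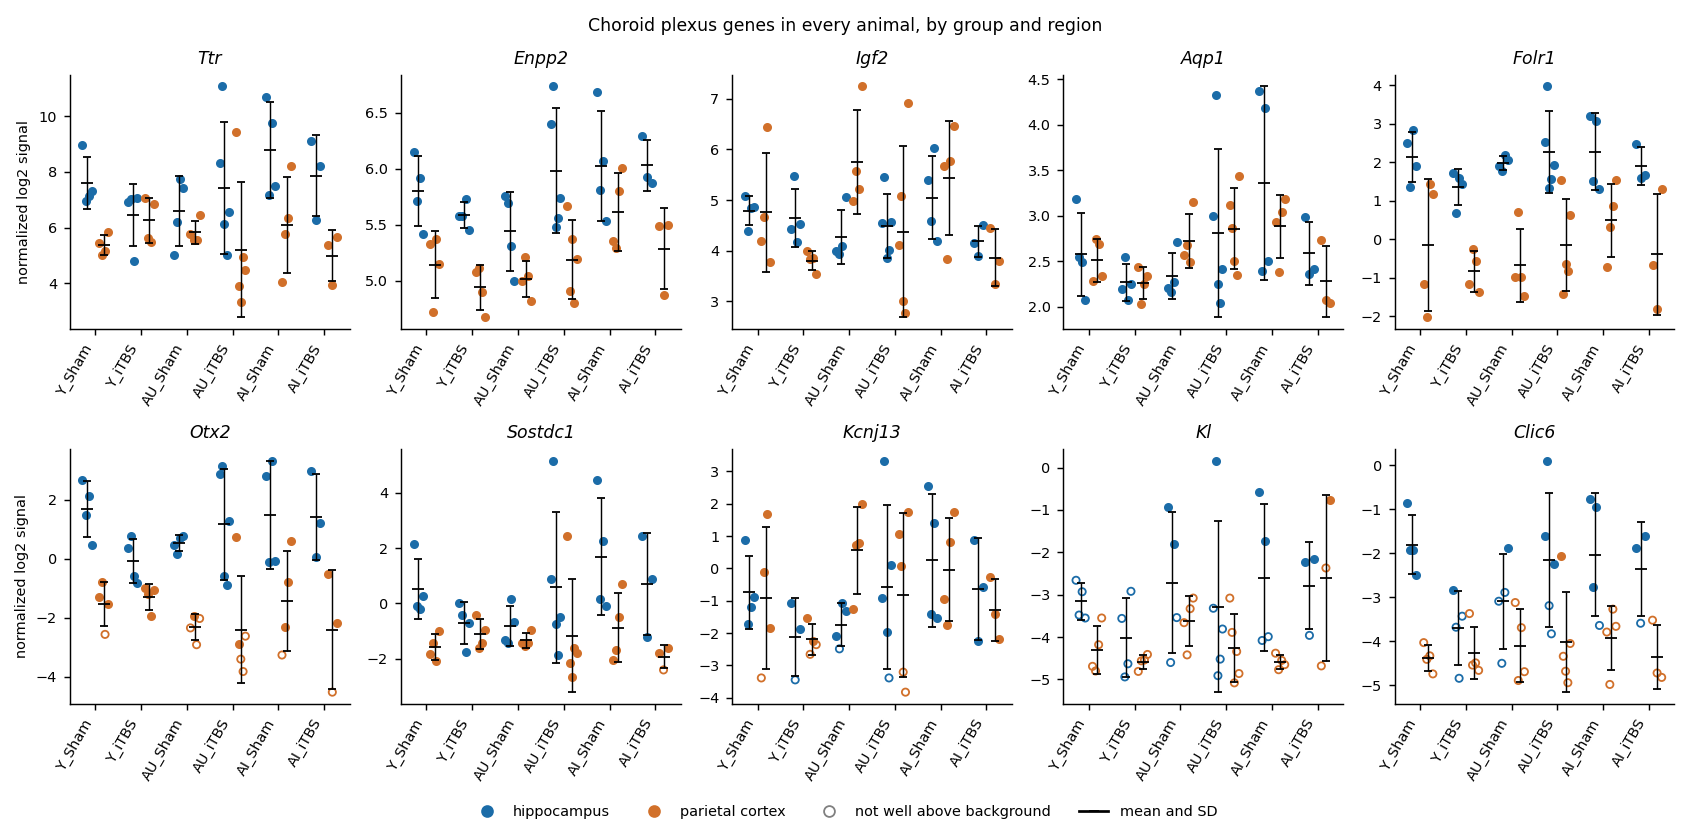
Normalized log2 signal of the 10 genes in each animal (points; open where the spot was not well above background), with group mean and SD, in hippocampus (blue) and parietal cortex (orange); 0 is the array mean and each panel has its own scale. Ttr, Sostdc1 and Kcnj13 spread widely inside most groups, AU_iTBS 2 is the highest of its group in hippocampus for all 10 genes and AU_iTBS 1 in cortex for Ttr, Otx2 and Sostdc1.

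In hippocampus Sostdc1 and Kcnj13 spread more widely than Ttr, and the other 7 genes less. The SD within groups was 1.60 for Ttr, larger than for 99.6% of the probes tested, whose median was 0.26. It was larger still for Sostdc1 (1.78, above 99.8% of probes) and Kcnj13 (1.74, above 99.7%). Sostdc1 ranged from -1.87 to 5.16 (131-fold) and Kcnj13 from -3.45 to 3.33 (110-fold, measured in 23 animals). Otx2 ranged from -0.89 to 3.32, Folr1 from 0.69 to 3.98, Igf2 from 3.85 to 6.02 and Aqp1 from 2.04 to 4.37. Enpp2 was the least variable, ranging from 5.00 to 6.74 (3.34-fold), and its SD lay above that of 73.6% of probes. Kl and Clic6 were well above background in 7 and 14 of 24 hippocampi, so their lower values are close to the detection limit.

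In cortex Kcnj13 had the largest SD within groups of the 8 genes (1.76, above 99.9% of probes, against a median of 0.35), followed by Ttr (1.44, above 99.3%), Otx2 (1.35, above 99.0%), Folr1 (1.20), Igf2 (1.14) and Sostdc1 (1.14). Igf2 spread further in cortex, from 2.77 to 7.25 (22.3-fold), than in hippocampus. Aqp1 and Enpp2 were less variable in cortex than in hippocampus, their SDs within groups (0.33 and 0.30) lying above those of 47.1% and 38.0% of probes. Otx2 was well above background in 15, Kcnj13 in 19 and Sostdc1 in 23 of 24 cortices.

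Most of the genes were higher in hippocampus than in the cortex of the same animal. At an adjusted p under 0.05 (limma, Benjamini-Hochberg over 33770 probes), 7 of the 10 genes were called higher in hippocampus and none lower. These include Kl and Clic6, each well above background in 1 of 24 cortices. Both passed the filter through their hippocampal signal alone, which favors a call in that direction. Of all probes tested, 49.4% were called and 26.3% were called higher in hippocampus, so the regions differed widely and a call alone says little about these genes. The transcription factor Otx2 had the largest difference, 2.93 (SE 0.30, 95% interval 2.31 to 3.56, 7.64-fold, adjusted p = 5.43e-08), and was higher in the hippocampus of 23 of 24 animals. Its cortex values included 9 animals not well above background, and with these raised to the detection floor the difference was at least 2.78, or 6.87-fold.

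Folr1, the folate receptor, differed by 2.27 (SE 0.288, 4.83-fold, adjusted p = 1.18e-06) and was higher in 23 of 24 animals. Ttr differed by 1.83 (SE 0.41, 95% interval 0.98 to 2.68, 3.55-fold, adjusted p = 0.000881), with 19 of 24 animals higher in hippocampus and single differences from -1.13 to 7.19. Sostdc1 differed by 1.67 (SE 0.422, adjusted p = 0.00255; 20 of 24 animals) and Enpp2, the autotaxin gene, by 0.61 (SE 0.0967, adjusted p = 2.05e-05; 23 of 24 animals). Folr1, Ttr, Sostdc1 and Enpp2 were thus on average higher in hippocampus, but 5 animals had more Ttr in cortex.

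Clic6 differed by 1.65 (SE 0.221, adjusted p = 2.56e-06), which became at least 0.55 (1.46-fold) with cortex values raised to the detection floor, since 1 of 24 cortices measured it. Kl differed by 0.90 (SE 0.298, adjusted p = 0.0161), but with both regions mostly near background no lower bound above 0 could be given, and without AI_iTBS 1 its adjusted p was 0.0505. With normexp background correction the Kl difference was 0.16 (adjusted p = 0.167). The channels Aqp1 (0.07, 95% interval -0.20 to 0.34) and Kcnj13 (-0.11, -1.02 to 0.81) and the growth factor Igf2 (-0.09, -0.53 to 0.34) were not called, and their intervals leave room for differences in either direction. The second probes of Otx2 (2.64), Aqp1 (0.33) and Igf2 (-0.05) gave calls of the same kind. The arrays had been scanned in a first batch of 15 animals and later batches of 9. Within the first batch the 7 called genes differed by 0.35 (Kl) to 2.61 (Otx2), with Ttr at 1.29, and among the 9 animals of the later batches by 0.88 (Enpp2) to 3.45 (Otx2), with Ttr at 2.65. Kcnj13 took opposite signs, -0.82 and 1.12. In each of the 24 animals the original arrays of the 2 regions were on different slides, and in 8 of the 9 later animals they were also scanned in different batches, so for these animals region and scan batch cannot be told apart. The slide of the hippocampal array was then taken as a random block, which leaves the slide of the cortex array unaccounted for. The differences were 1.83 for Ttr (adjusted p = 0.0528), 1.64 for Sostdc1 (0.0846) and 0.84 for Kl (0.178), all from limma and no longer called.

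**Figure D2:**
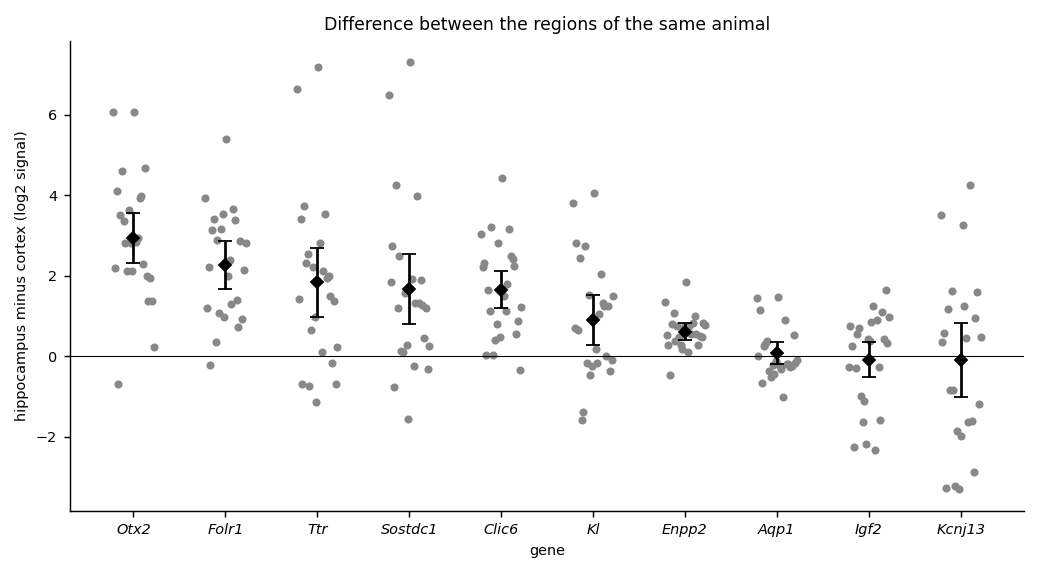
Hippocampus minus cortex of the same animal, on the log2 scale, for each gene (gray points, 24 animals; 23 for Kcnj13), with the fitted mean and its 95% interval (black). Otx2, Folr1, Clic6 and Enpp2 lie above 0 in 23 of 24 animals, whereas Aqp1, Igf2 and Kcnj13 scatter around 0.

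Other genes of the same systems were set beside this. Of 21 further choroid plexus markers, 15 were higher and 4 lower in hippocampus (median difference 0.78). Among the higher were Calml4 (3.80, SE 0.153, adjusted p = 1.76e-14) and Lmx1a (2.21), a transcription factor of the roof plate lineage. The 4 lower were Col8a1 (-0.91), Sulf1 (-0.63), Kcne2 (-0.57) and Trpv4 (-0.51). All 9 ependymal markers were higher (median 1.41), including Foxj1 (1.54), the master regulator of motile cilia. Of 13 markers of leptomeningeal fibroblasts, 2 were higher and 7 lower in hippocampus (median -0.54), with Col3a1 at -1.04. Of 12 oligodendrocyte markers, which Enpp2 could also follow, 11 were higher and 1 lower (median 0.65). Brain endothelial markers (0 higher and 6 lower of 8, median -0.30), red blood cell genes (0 and 3 of 5, -0.26) and thalamus markers (1 and 3 of 5, -0.73) were mostly lower.

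Among functional partners, 8 of 15 genes of cerebrospinal fluid secretion were higher and 4 lower (median 0.19), with Car2, a carbonic anhydrase, at 0.78. Genes of thyroid hormone and retinol handling, the cargo of transthyretin, were 5 higher and 5 lower of 15 (median 0), with Aldh1a1 at 1.89 and Thrb at -1.06. The insulin-like growth factor system had 6 higher and 3 lower of 13 (median 0), with Igfbp6 at -1.62. Receptors and phosphatases for lysophosphatidic acid, the product of autotaxin, had 4 higher and 2 lower of 8 (median 0.40), with Lpar1 at 0.74. Folate transport had 3 higher and 0 lower of 5 (median 0.19), klotho and FGF23 signaling 2 and 0 of 5 (0.41), with Fgfr1 at 1.54, and the BMP and Wnt partners of Sostdc1 4 and 4 of 10 (0.09), with Bmp2 at -0.97. Some genes stand on more than 1 of these lists.

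No member of the set passed the test in any comparison of stimulated with sham animals. In the young hippocampus 0 of 10 genes were called (0% of all 32501 probes), and 1 had an unadjusted p under 0.05, against 4.51% of all probes. All 10 differences (iTBS minus sham) were negative, from -1.89 to -0.14 with a median of -1.01, whereas the median over all probes was -0.02. Clic6 was -0.87, -1.93, -1.92 and -2.49 in the 4 Y_Sham animals and -2.83, -3.68, -4.84 and -3.43 in the 4 Y_iTBS animals. Only the first of the 4 Y_iTBS values was well above background, and the fitted difference was -1.89 (SE 0.779, 95% interval -3.52 to -0.27, adjusted p = 0.932). Otx2 differed by -1.76 (SE 0.907, adjusted p = 0.932), Folr1 by -0.78 (SE 0.499) and Ttr by -1.16 (SE 1.07, 95% interval -3.39 to 1.07). The differences of these genes are not independent, since the genes vary together between animals as described further on. In the same comparison 2 of 21 further plexus markers (median -0.39) and 4 of 9 ependymal markers (median -0.62) had an unadjusted p under 0.05, and 0 of 13 leptomeningeal markers (median 0.09). The summed log2 signal of the further plexus markers ran from 6.51 to 6.94 in Y_Sham and from 6.41 to 6.74 in Y_iTBS, with 1 and 4 of them above background in no animal, and that of the ependymal markers from 5.97 to 6.49 and from 5.72 to 5.84, with none missing. The part of other cells of the ventricle in the result was not tested.

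In the aged hippocampus no gene passed the test. The differences were positive for 9 of 10 genes in AU animals (median 0.59) and negative for 9 of 10 in AI animals (median -0.57), where the median over all probes was 0 in both, and the difference between these contrasts was not tested. In AU animals 0 of 10 genes were called (0% of probes; 1 gene at an unadjusted p under 0.05, against 2.29% of probes). Enpp2 differed by 0.54 (SE 0.254, adjusted p = 1), Sostdc1 by 1.40 (SE 1.13), Clic6 by 0.94 (SE 0.739) and Ttr by 0.83 (SE 1.01). Without AU_iTBS 2, the animal with the highest Ttr, the Ttr difference was -0.09, and it was -1.32 within the first scan batch (2 against 3 animals) and 3.49 within the later ones (3 against 1). In AI animals 0 of 10 were called (0% of probes; 0 genes and 1.95% of probes at an unadjusted p under 0.05), with Igf2 at -0.86 (SE 0.416, adjusted p = 1), Aqp1 at -0.77 (SE 0.482), Sostdc1 at -0.99 (SE 1.28) and Ttr at -0.92 (SE 1.15). Of the 13 leptomeningeal markers, 6 had an unadjusted p under 0.05 in that contrast (median -0.86), their summed signal running from 8.97 to 10.64 in AI_Sham and from 9.22 to 9.28 in AI_iTBS, and their part in the Igf2 value was not tested. For the AU and AI contrasts averaged, 0 of 10 were called (0% of probes; 0 genes and 2.48% of probes unadjusted) and the median over the genes was 0.05, with Enpp2 at 0.27, Igf2 at -0.32, Clic6 at 0.30 and Ttr at -0.05 (SE 0.769).

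In the cortex of aged animals the mean of Igf2 was lower after stimulation than after sham treatment, without passing the test. Its signal was 4.99, 5.58, 5.21 and 7.25 in AU_Sham and 4.12, 5.08, 3.00, 2.77 and 6.91 in AU_iTBS. It was 5.67, 3.83, 5.77 and 6.46 in AI_Sham and 4.45, 3.34 and 3.80 in AI_iTBS. Stimulated and sham animals overlapped in both cognitive groups. The aged contrast was -1.48 (SE 0.543, 95% interval -2.61 to -0.35, adjusted p = 1), 0.359-fold, and its second probe gave -1.25 (SE 0.598). In the 2 cognitive groups the second probe gave -0.61 (AU) and -1.90 (AI). Within scan batches the difference was -1.18 and -0.92 in AU and -1.78 and -1.23 in AI animals, the last from 1 animal against 1. In this contrast 0 of 8 genes were called (0% of probes), 1 had an unadjusted p under 0.05, against 2.92% of probes, and all 8 differences were negative (median -0.48), with Kcnj13 at -1.32 (SE 0.837), Aqp1 at -0.23 (SE 0.167) and Ttr at -0.85 (SE 0.685).

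The median difference of the leptomeningeal fibroblast markers was negative as well in this contrast. Of 13 such markers, 12 had an unadjusted p under 0.05 and 0 were called, with a median difference of -0.90. Their summed log2 signal ran from 9.25 to 10.92 in AU_Sham and from 8.82 to 10.73 in AI_Sham, and from 8.19 to 10.67 in AU_iTBS and from 8.99 to 9.36 in AI_iTBS, and all 13 markers were above background in some animal of every group. The further plexus markers had 2 of 18 at an unadjusted p under 0.05 (median -0.22). The summed signal of all 21, the untested ones included, ran from 5.67 to 5.93 in AU_Sham and from 5.27 to 5.90 in AU_iTBS. It ran from 5.60 to 6.35 in AI_Sham and from 5.62 to 5.68 in AI_iTBS. In these groups, in the same order, 4, 1, 3 and 7 of the 21 were above background in no animal. The part of these cells in the Igf2 values was not tested.

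Taken separately, the cortical contrasts called no gene of the set. In AU animals 0 of 8 were called (0% of probes; 0 genes and 8.38% of probes at an unadjusted p under 0.05), with Igf2 at -1.38 (SE 0.716), Kcnj13 at -1.39 (SE 1.11), Enpp2 at 0.17 (SE 0.199) and Ttr at -0.62 (SE 0.904). In AI animals 0 of 8 were called (0.00613% of probes), and 1 gene against 4.09% of probes had an unadjusted p under 0.05. This was Aqp1, at 2.93, 2.38, 3.04 and 3.18 in AI_Sham and 2.73, 2.07 and 2.04 in AI_iTBS, a difference of -0.60 (SE 0.251, adjusted p = 1). Its second probe gave -0.76 (SE 0.653). Igf2 differed there by -1.57 (SE 0.816), Enpp2 by -0.32 (SE 0.227) and Ttr by -1.09 (SE 1.03), the Ttr value being -1.96 within the first scan batch and 1.33 within the later ones, 1 animal against 1. In young animals 0 of 8 were called (0% of probes; 0 genes and 2.70% of probes unadjusted), with Igf2 at -0.96 (SE 0.755), Kcnj13 at -1.29 (SE 1.16), Aqp1 at -0.24 (SE 0.232) and Ttr at 0.89 (SE 0.953).

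The stimulation effect was also compared between the regions of the same animals. For young animals 0 of 10 genes were called (0% of 33770 probes; 1 gene and 2.65% of probes at an unadjusted p under 0.05). The effect in hippocampus minus that in cortex was -2.05 (SE 1.40) for Ttr, -2.0 (SE 0.758, adjusted p = 1) for Clic6, which most cortices did not measure, and -2.01 (SE 1.03) for Otx2. For aged animals 0 of 10 were called (0% of probes; 1 gene and 2.29% of probes unadjusted), with Igf2 at 1.15 (SE 0.512, adjusted p = 1), Enpp2 at 0.35 (SE 0.238) and Ttr at 0.81 (SE 1.01).

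Among sham animals, AI rats had higher mean values than AU rats in hippocampus for all 10 genes, and none passed the test. The differences ran from 0.12 to 2.51 with a median of 0.99. No gene was called (0% of probes), and 3 of 10 had an unadjusted p under 0.05, against 4.05% of probes. Aqp1 was 4.37, 2.39, 4.19 and 2.50 in AI_Sham and 2.21, 2.16, 2.27 and 2.71 in AU_Sham, a difference of 1.02 (SE 0.447, adjusted p = 1). AI_Sham 1 and AI_Sham 3 lay above every AU_Sham animal and the other AI_Sham animals inside the AU_Sham range. The second Aqp1 probe gave 1.85 (SE 0.686, adjusted p = 1). Enpp2 differed by 0.58 (SE 0.268), Sostdc1 by 2.51 (SE 1.19) and Ttr by 2.18 (SE 1.07, 95% interval -0.05 to 4.41), with adjusted p = 1 for each. Of the 2 animals with the highest Ttr, AI_Sham 1 and AU_iTBS 2, only AI_Sham 1 belongs to this comparison. Without them the differences were 0.69 for Aqp1, 0.36 for Enpp2, 1.59 for Sostdc1 and 1.54 for Ttr. AI_Sham 3, with Aqp1 at 4.19, stayed in, and leaving out AI_Sham 1 and AI_Sham 3 together was not tried. Of the 13 leptomeningeal markers, 7 had an unadjusted p under 0.05 here (median 0.83), as did 2 of 21 further plexus markers (median 0.37) and 0 of 9 ependymal markers (median -0.03). The leptomeningeal sum ran from 8.97 to 10.64 in AI_Sham and from 8.76 to 9.54 in AU_Sham. The further plexus sum ran from 6.36 to 7.18 and from 6.37 to 6.76, with 0 and 4 of its 21 markers above background in no animal. The part of these cells in the result was not tested.

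In cortex, Enpp2 had the smallest p of the 8 genes between AI and AU sham animals. It was 5.35, 5.29, 5.8 and 6.01 in AI_Sham and 5.00, 5.21, 5.04 and 4.82 in AU_Sham. The difference of 0.59 (SE 0.21, 95% interval 0.15 to 1.03) had an adjusted p of 0.664 (limma). No gene was called (0% of probes), and 1 of 8 against 6.44% of probes had an unadjusted p under 0.05. Folr1 differed by 1.17 (SE 0.795), Otx2 by 0.87 (SE 0.897) and Ttr by 0.26 (SE 0.953). Of 12 oligodendrocyte markers, 3 had an unadjusted p under 0.05 (median 0.43), with sums from 11.39 to 12.01 in AI_Sham and from 11.62 to 11.86 in AU_Sham, and of 9 ependymal markers 4 did (median 0.82), and their part in the Enpp2 values was not tested. Aged minus young sham animals gave 0 of 10 called genes in hippocampus (0.00308% of probes; 0 genes and 8.18% of probes unadjusted), with Clic6 at -0.76 (SE 0.675), Otx2 at -0.68 (SE 0.785), Aqp1 at 0.28 (SE 0.387) and Ttr at 0.09 (SE 0.926). In cortex they gave 0 of 8 (0.104% of probes; 0 genes and 9.46% of probes unadjusted), with Aqp1 at 0.29 (SE 0.201), Igf2 at 0.83 (SE 0.654), Kcnj13 at 1.17 (SE 1.01) and Ttr at 0.60 (SE 0.825). Over all 6 groups at once, 0 of 10 genes differed in hippocampus (0.0492% of probes called; 0 genes and 5.55% of probes unadjusted) and 0 of 8 in cortex (0.156% of probes; 1 gene, Aqp1, and 9.14% of probes unadjusted). The groups held 24.0% of the variance of Ttr in hippocampus and 11.7% in cortex.

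The genes varied together between animals in hippocampus. Ttr was correlated over the 24 animals with each of the other 9 genes, and with all 32500 probes tested as the family for the adjustment; p-values come from 100000 two-sided permutations, whose smallest value is 1e-05. Of the 9 genes, 6 had an adjusted p under 0.05, against 0.138% of all probes called with a positive r. The secreted inhibitor Sostdc1 followed Ttr most closely, with r = 0.96 and rho = 0.93, both with the smallest permutation p of 1e-05 (adjusted p of r = 0.0141). The 3 animals highest in Ttr had Sostdc1 signals of 5.16, 4.46 and 2.24, and the lowest (Y_iTBS 3) had -1.77. With the 2 animals farthest from the median of Ttr left out (AU_iTBS 2 and AI_Sham 1), r was 0.94, and it was 0.95 with group means removed, 0.95 in the first scan batch and 0.98 in the later ones.

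The channels and the transcription factor followed. Kcnj13 had r = 0.93 (rho = 0.84, both p = 1e-05, adjusted 0.0141), and r was 0.88 without the 2 farthest animals. Aqp1 had r = 0.89 (rho = 0.82, p = 1e-05 and 2e-05) and 0.79 without them. Clic6 had r = 0.85 (rho = 0.81, both p = 1e-05) and 0.79 without them, and Otx2 had r = 0.82 (rho = 0.74, p = 1e-05 and 9e-05) and 0.78 without them. In both batches these 4 genes kept r between 0.74 and 0.94. The 3 animals highest in Ttr, AU_iTBS 2, AI_Sham 1 and AI_Sham 3, had Kcnj13 signals of 3.33, 2.56 and 1.39 and Aqp1 signals of 4.33, 4.37 and 4.19, the 3 highest of each gene.

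The remaining genes covaried less tightly. Folr1 had r = 0.75 (rho = 0.61, p = 6e-05 and 0.00154, adjusted p of r = 0.0398), which was 0.55 without the 2 farthest animals and 0.47 in the first batch. Its call was lost when any of 7 animals was left out (AU_iTBS 1, AU_iTBS 2, AU_iTBS 3, AI_Sham 1, AI_Sham 3, AI_iTBS 1 or AI_iTBS 2), with r from 0.66 to 0.74. The call was also lost with quantile normalization (adjusted p = 0.0619), normexp background correction (0.0671), the deposited z-scores (0.051), no filter on dim probes (0.0547) and the scan batch as a block (0.0604), each from permutations. Igf2 (r = 0.69, rho = 0.64, p = 0.00018 and 0.00104, adjusted p of r = 0.0705) and Kl (r = 0.69, rho = 0.67, p = 0.00022 and 0.00048, adjusted p of r = 0.0737) were not called. Igf2 passed without Y_iTBS 2 or AI_iTBS 1 (r = 0.75 in each case), and Kl passed without AU_Sham 1 (r = 0.89). With the scan batch as a block Igf2 passed as well (r = 0.73, adjusted p = 0.0415), as it did with group means removed (0.74, 0.0125). Kl passed with 75th percentile scaling (0.72, 0.0386) and with group means removed (0.72, 0.0302), all from permutations. Enpp2 had r = 0.67 (rho = 0.46, p = 0.00044 and 0.024, adjusted p of r = 0.1), which was 0.41 without the 2 farthest animals and 0.11 in the first batch against 0.91 in the later ones. It passed without AU_Sham 1 (r = 0.69) or AU_Sham 4 (r = 0.73).

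The permutation calls were lost in some settings. These were Spearman's rho in place of r, leaving out the 2 farthest animals, and the first or the later scan batches alone. In them 0 of the 9 genes had an adjusted p under 0.05. Neither did any other probe, the smallest adjusted p from permutations being 0.065, 0.0542, 0.26 and 0.315. Sostdc1 kept the smallest permutation p, 1e-05, in each setting but the later batches (3e-05). With the parametric p, an alternative added after the data were seen, 4, 2, 1 and 1 of the 9 genes were called in turn. Of all probes it called 7, 5, 1 and 3. Over all 45 pairs of the 10 genes in hippocampus, r ranged from 0.36 to 0.96 with a median of 0.76, and 43 pairs were over 0.5. The lowest pair was Enpp2 with Igf2. As a description, the genes outside the set whose pattern was most like the mean of the 10 were Tmem72 (r = 0.93 over 24 animals), Smim22 (0.90), Msx1 (0.89), Lmx1a (0.89), Nt5dc2 (0.88), C8h11orf97 (0.88), Adipoq (0.87), Esm1 (0.87), Rab11fip1 (0.86) and Mfrp (0.85), where the median over 13353 symbols was -0.01. Tmem72, Msx1 and Lmx1a stand on the list of further plexus markers. Adipoq and Esm1 had median signals of -4.87 and -4.84, close to their lowest values (-5.05 and -5.02). Their highest values were -0.94 and -1.36, so nearly all of their range lay in the animals above the median.

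**Figure D3:**
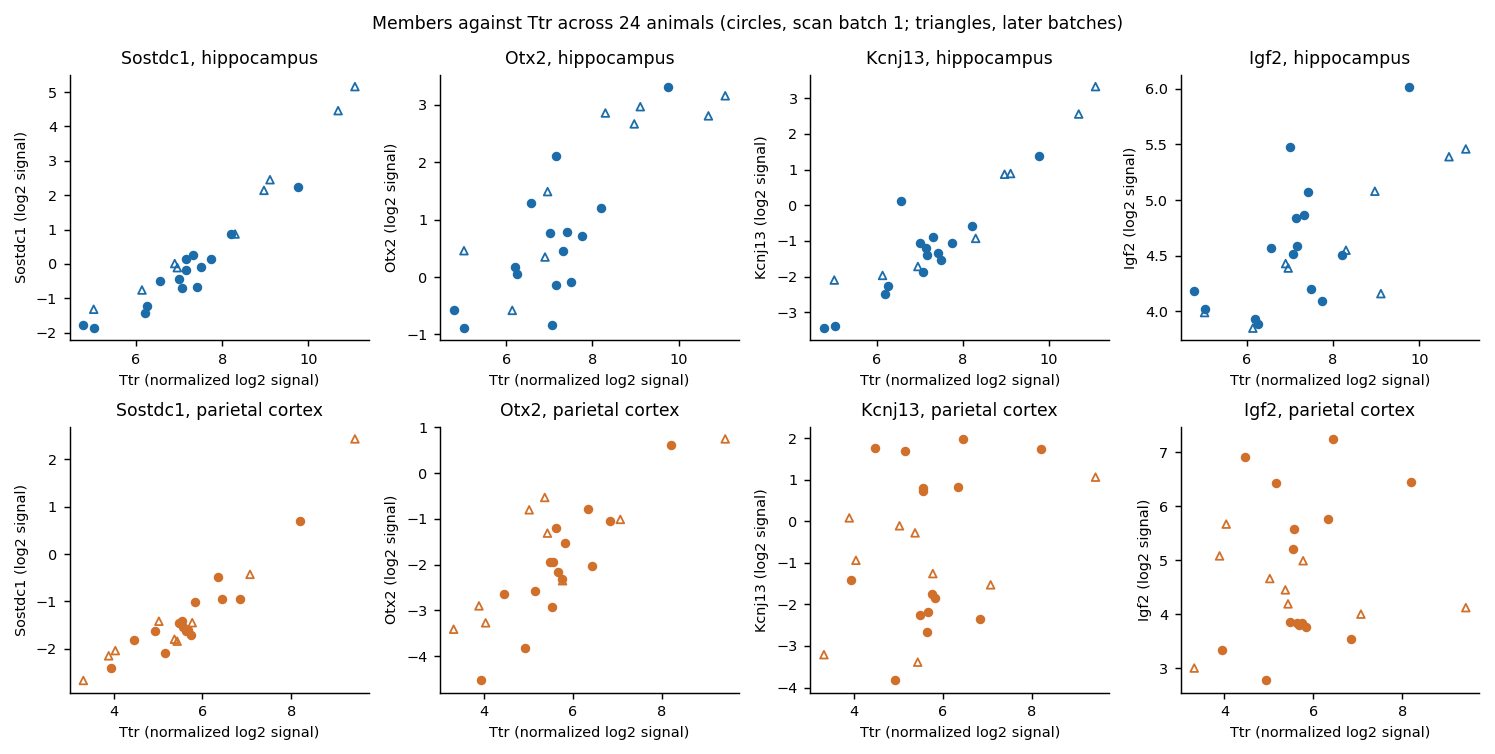
Sostdc1, Otx2, Kcnj13 and Igf2 against Ttr (normalized log2 signals) in hippocampus (top row, blue) and parietal cortex (bottom row, orange), 24 animals per panel (23 for Kcnj13 in hippocampus); circles are animals of the first scan batch and triangles those of later batches. Sostdc1 follows Ttr in both regions (r = 0.96 and 0.94), Otx2 less tightly (0.82 and 0.81), and Kcnj13 and Igf2 follow it in hippocampus (0.93 and 0.69) but scatter in cortex (0.30 and 0.12).

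Markers of other cell types were set against Ttr in the same way. In hippocampus 6 of 21 further plexus markers were called, with a median r of 0.63. These were Tmem72 (0.89), Msx1 (0.78), Trpv4 (0.78), a cation channel of the plexus epithelium, Col8a1 (0.77), Cldn2 (0.77), the claudin of its tight junctions, and Lmx1a (0.76). Trpv4 and Col8a1 were lower in hippocampus than in cortex (-0.51 and -0.91), unlike the other genes named here. The summed log2 signal of the 21 markers reached 7.34 in AU_iTBS and 7.18 in AI_Sham, against at most 6.97 in the other groups. Of the 13 leptomeningeal markers only Igfbp2, which binds insulin-like growth factors, was called (r = 0.76), and the median r was 0.43. None of 9 ependymal markers (median r = 0.50), 12 oligodendrocyte markers (0.30), 8 endothelial markers (0.03), 5 red blood cell genes (0.25) or 5 thalamus markers (0.00) was called. Of the partner lists, cerebrospinal fluid secretion (median r = 0.30), thyroid hormone and retinol handling (0.03), lysophosphatidic acid receptors (0.00), folate transport (0.08), klotho and FGF23 signaling (0.15) and the BMP and Wnt partners (-0.17) had no call, and the insulin-like growth factor system had Igfbp2 alone (median -0.04). The median r with Ttr over all probes was -0.05.

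In cortex Sostdc1 and Otx2 varied with Ttr, Kcnj13 and Aqp1 varied with Igf2, and Folr1 and Enpp2 followed neither closely. Sostdc1 still followed Ttr (r = 0.94, rho = 0.88, both p = 1e-05), at 0.89 without the 2 farthest animals (AU_iTBS 1 and AI_Sham 4), 0.92 in the first batch and 0.96 in the later ones. Otx2 did as well (r = 0.81, rho = 0.70, p = 1e-05 and 0.00027), at 0.69 without those animals and 0.89 and 0.85 in the batches. Their adjusted p was 0.109, which was the smallest that 100000 permutations could give for 32611 probes when 3 of them reached the lowest p, so that 0 of 7 genes were called in this test. With the parametric p of r, an alternative added after the data were seen, 2 of 7 were called, Sostdc1 and Otx2 (adjusted p = 4.64e-07 and 0.021), against 0.0092% of all probes called with a positive r.

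The other genes did not follow Ttr closely in cortex. Folr1 had r = 0.42 (rho = 0.33, p = 0.0366 and 0.115, adjusted p of r = 0.762), Enpp2 0.38 (rho = 0.18), Kcnj13 0.30 (rho = 0.19), Aqp1 0.24 (rho = 0.07) and Igf2 0.12 (rho = 0.11). At an unadjusted p under 0.05, 3 of 7 genes and 2.36% of all probes covaried positively with Ttr. Without the 2 farthest animals Enpp2 and Aqp1 had r of -0.04 and -0.11.

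Igf2 was taken as a further anchor in cortex after its values had been seen. Kcnj13 (r = 0.87, rho = 0.85, both p = 1e-05, adjusted p of r = 0.00161) and Aqp1 (r = 0.78, rho = 0.77, p = 1e-05 and 2e-05, adjusted p of r = 0.00161) followed it, 2 of 7 genes, against 1.10% of all probes called with a positive r. The 4 cortices with the highest Igf2, AU_Sham 4 (7.25), AU_iTBS 5 (6.91), AI_Sham 4 (6.46) and Y_Sham 3 (6.44), had Kcnj13 signals of 1.98, 1.75, 1.73 and 1.69, the highest of the 24. Without the 2 animals farthest from the median of Igf2, r was 0.83 for Kcnj13 and 0.69 for Aqp1. Within the first scan batch it was 0.96 and 0.89. Within the later batches it was 0.46 and 0.44, and neither gene was called there. The remaining 5 genes had r between 0.12 and 0.26 with Igf2.

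**Figure D4:**
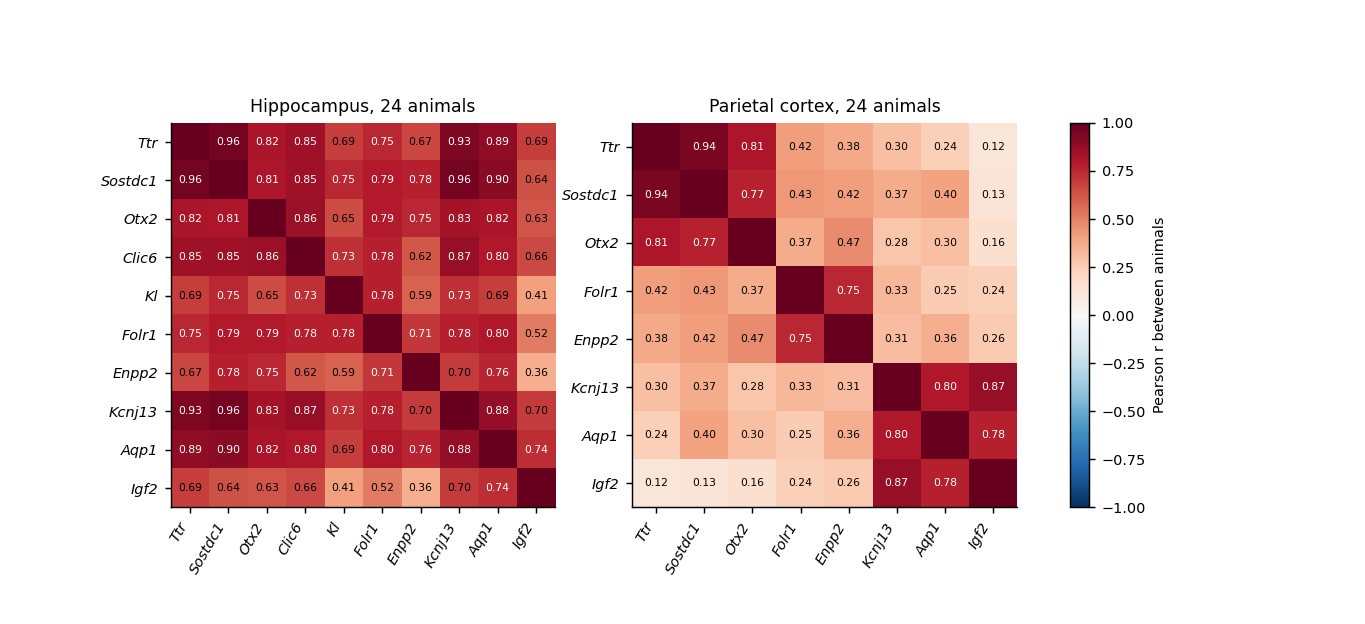
Pearson r between animals for each pair of genes, over 24 animals, in hippocampus (10 genes, left) and parietal cortex (8 genes, right); the color scale runs from -1 to 1. In hippocampus the r values run from 0.36 to 0.96, whereas in cortex Ttr, Sostdc1 and Otx2 form a block of high r and Kcnj13, Aqp1 and Igf2 another.

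The leptomeningeal markers had a higher median r with Igf2 than with Ttr in cortex. With Igf2, 12 of 13 were called and the median r was 0.92, led by Aldh1a2 (0.96), which makes retinoic acid, and the collagens Col1a1 (0.94) and Col1a2 (0.94), and only Lum (0.48) was not. With Ttr the median r was 0.10, in a test that called no probe on the array. The further plexus markers had 2 of 18 called with Igf2, among them Msx1 (0.72), with a median r of 0.27, and with Ttr a median of 0.23 with the highest values for Cldn2 (0.61), Calml4 (0.58) and Lmx1a (0.55). Igfbp2 (0.95) was the 1 gene of 13 called on the insulin-like growth factor list. Genes of thyroid hormone and retinol handling had 4 of 15 called with Igf2 (Aldh1a2, Crabp2 and Rbp4 among them), the BMP and Wnt partners 2 of 10 (Bmp6 at 0.77 and Bmp7 at 0.70), the ependymal list 1 of 9 (Rarres2, 0.84) and the red blood cell genes 1 of 5 (Hba-a2, 0.66). No other list had a call with Igf2 in cortex. The part of leptomeningeal cells in the values of Igf2, Kcnj13 and Aqp1 was not tested.

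**Figure D5:**
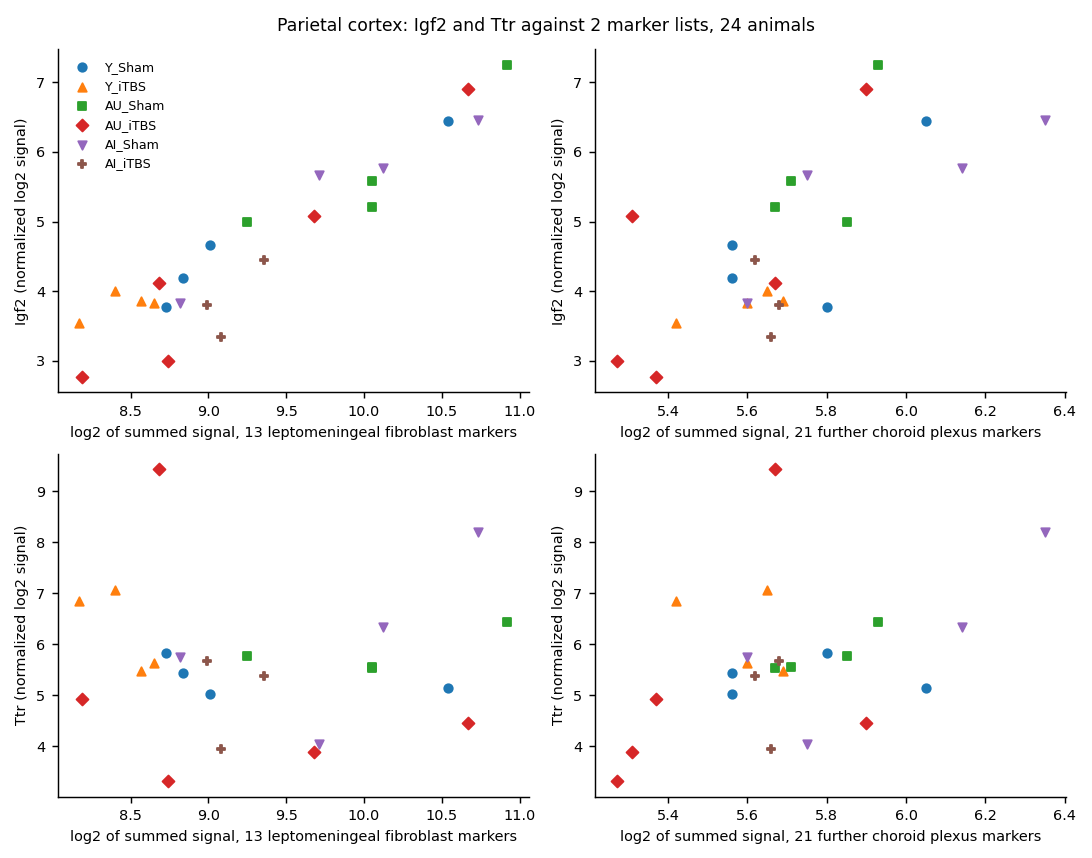
Igf2 (top) and Ttr (bottom) against the log2 of the summed signal of 13 leptomeningeal fibroblast markers (left) and of 21 further choroid plexus markers (right) in parietal cortex; each point is 1 of 24 animals, colored by group. The 4 animals with the highest Igf2 also have the highest leptomeningeal sums (10.54 to 10.92), and Ttr is scattered along that sum.

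Over all 28 pairs of the 8 genes in cortex, r ranged from 0.12 to 0.94 with a median of 0.37, and 7 pairs were over 0.5, among them Folr1 with Enpp2 (0.75). The genes outside the set most like the mean of the 8 in cortex were Spacdr (r = 0.80), Timp1 (0.71), C1qtnf3 (0.71), Helz2 (0.70), Calml4 (0.70), Gja5 (0.69), Aoc3 (0.69), Pon3 (0.69), LOC100909928 (0.68) and Smim22 (0.68), again as a description over 24 animals, where the median over 13323 symbols was 0.05. Smim22 is on both regional lists.

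No gene covaried between the 2 regions of the same animals beyond the test's threshold. For Ttr the correlation between the regions was 0.00 (rho = 0.13, p = 0.991 and 0.557), at 0.35 without the 2 animals farthest from the hippocampal median and 0.42 and -0.19 within the first and later batches. Sostdc1 had r = -0.03 (rho = 0.00), Folr1 0.04, Kcnj13 0.23, Otx2 0.26, Enpp2 0.31 and Igf2 0.32. Aqp1 had the highest value, 0.42 (rho = 0.46, p = 0.0412 and 0.0261, adjusted p of r = 0.203), and 0.38 without the 2 farthest animals. Of the 8 genes tested in both regions, 0 were called, against 7.36% of 31343 probes. AU_iTBS 2, which had the highest hippocampal Ttr (11.08), had 3.89 in cortex, and AU_iTBS 1, which had the highest cortical Ttr (9.43), had 8.30 in hippocampus.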

How the data were processed

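Total RNA from hippocampus and parietal cortex of 24 rats was labelled with Cy3 and read on 1-colour Agilent rat arrays (62976 features, 58717 of them non-control, 45598 distinct probes) with Feature Extraction 12.0.3.1, per the file headers. The deposited scanner files give the processed intensity of each spot after the authors' background subtraction. The authors also deposited a table in which each value is the z score of a feature on its array, and these matched z-scores recomputed from the log2 intensity of each array within 0.005 and served as an alternative. Here each array's log2 intensities were standardized over its non-control probes in the same manner and put back on a log2 scale with 1 common SD, 4.08, the average over arrays. Flagged spots were left out (267 to 1448 per array) and spots of a probe were averaged.

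Probes well above background in at least 3 of 24 animals were tested (32501 in hippocampus, 32612 in cortex, 33770 in either). Limma 3.58.1 in R 4.3.3 fitted 6 group means per region over 24 animals (18 residual degrees of freedom), with Benjamini-Hochberg adjustment over all probes tested and an adjusted p under 0.05 as the call. The regions were compared through the difference within each animal. Kcnj13 of 1 hippocampus (Y_iTBS 1) was a flagged spot, which limma dropped and which took the gene's mean in correlations. Covariation used Pearson's r with 100000 two-sided permutations of the animals (10000 for the alternatives of the comparison between regions). The smallest permutation p, 1e-05, limits the adjusted p where few probes reach it. The fits were tested on simulated data.

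Accessions named 46.3% of the probes through RefSeq. Promoters are 250 bases, from RefSeq (GRCr8). The members and the marker and pathway lists were chosen with earlier results of these data known. All 10 genes are named in the regional comparison. In every other group comparison Ttr and the 3 members with the smallest p are named, and from each list at most 3 genes with the smallest p or those called, except that a few list genes are counted but not reported here by name. Alternatives covered scaling, background correction, filters, repeat arrays, probes per gene, scan batch and slide as blocks, and leaving out animals. Replicate numbers served as a block in the group comparisons, and the regions were also compared without pairing them by animal. In the comparisons between regions the slide block used the slide of the hippocampal array. Igf2 as an anchor, the parametric p of r and leaving out the animals highest in Ttr were chosen after seeing the data. Animals were separate, and the number of arrays limits the precision.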

Additional observations from a re-analysis of the deposited data

Results flagged for a closer look

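Of 89 sets of a gene, a region and a group of 4 or 5 animals, 5 held 1 animal that stood far from the others, where chance gives about 1 in 20. In hippocampus, Ttr was 4.78 in Y_iTBS 3 against 6.90 to 7.07 in the other Y_iTBS animals, a gap of 0.92 of the range of the group, and Igf2 was 5.07 in AU_Sham 4 against 3.93 to 4.09 (0.86 of the range). In cortex, 1 animal, AU_iTBS 1, gave the other 3 sets. Its Ttr was 9.43 against 3.32 to 4.93 in the other AU_iTBS animals (0.74 of the range), its Otx2 0.75 against -3.83 to -2.63 (0.74) and its Sostdc1 2.43 against -2.67 to -1.63 (0.80).

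The mean effect of stimulation on Ttr in young animals was -1.16 in hippocampus and 0.89 in cortex, a difference of -2.05. This was singled out because all 4 stimulated animals lay below the sham mean in hippocampus and all 4 lay above it in cortex. Opposite signs of the means alone were not flagged. Limma's test of the difference gave an adjusted p of 1.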

How the results depend on the processing

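The counts of genes called in the 12 group comparisons, the 2 comparisons of the stimulation effect between regions and the 2 tests over 6 groups stayed at 0 under every alternative run, also when any 1 animal was left out (0 to 0). The count of genes higher in hippocampus, with Kl and Clic6 that passed the filter through hippocampus alone, was 7. It ranged from 6 to 7 when 1 animal was left out. It was 4 with the slide of the hippocampal array as a random block. The count covarying with Ttr in hippocampus was 6 and ranged from 5 to 8 when 1 animal was left out. It was 5 with quantile normalization, normexp, the deposited z-scores and no filter, 7 with 75th percentile scaling and 8 with group means removed. It was 0 with Spearman's rho, without the 2 farthest animals, in the first scan batch and in the later batches. There no probe on the array was called either, whereas the parametric p called 4, 2, 1 and 1 of the 9 genes in turn. In cortex the count covarying with Ttr was 0 (0 to 0 when 1 animal was left out) and 2 with the parametric p. With 1 animal left out, the smallest adjusted p of any probe was 0.109 to 0.163. The smallest permutation p of 1e-05 set this limit, so the unchanged count of 0 says nothing about stability. The count covarying with Igf2 in cortex was 2 (2 to 2) and 0 in the later batches. The count covarying between the regions stayed at 0 (0 to 0).

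Deviations of same-numbered animals of different groups had a median r of 0.06 in hippocampus and 0.08 in cortex, against -0.02 and -0.05 for other pairs. With 18 and 25 of 55 pairs over 0.1, the numbers were not taken as pairs, although the animals numbered 1 shared a slide in each region. With the replicate number as a block the counts of called genes were 0 in every group comparison. With the regions compared without pairing them by animal, the regional count was 7 and the counts for the stimulation effect between regions 0.

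Values that were not called changed sign in these cases. The stimulation difference of Ttr was -0.09 in AU hippocampus without the 2 animals highest in hippocampal Ttr (-0.09 to 1.43 when 1 animal was left out) and 0.20 in aged hippocampus with the slide block (-0.50 to 0.35). The age difference of Ttr in sham hippocampus was -0.02 with 75th percentile scaling, -0.08 with quantile normalization and -0.23 without the 2 highest animals (-0.23 to 0.54), and the difference of AI from AU sham cortex -0.45 without the 2 animals highest in cortical Ttr (-0.45 to 0.94). Between regions, Aqp1 was -0.05 without the 2 highest animals, and Kcnj13 was 0.02 with the deposited z-scores, 0.01 with the slide block and 0.18 without the 2 animals highest in cortical Ttr (-0.34 to 0.09), and Igf2 ranged from -0.16 to 0.01. In cortex r with Ttr was -0.04 for Enpp2 and -0.11 for Aqp1 without the 2 farthest animals and -0.14 for Igf2 in the later batches, where r with Igf2 was -0.14 for Ttr, -0.31 for Enpp2, -0.23 for Folr1, -0.18 for Otx2 and -0.11 for Sostdc1, and that of Otx2 was -0.01 with the mean of its probes. Between the regions of an animal, r was -0.12 for Folr1 with group means removed (-0.04 to 0.20), and 0.23 and 0.35 for Sostdc1 without the 2 farthest animals and in the first batch (-0.12 to 0.08). The causes were not tested.

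Kl, Clic6 and cortical Otx2 and Kcnj13 lie near background, which limits their differences. Besides leaving out animals, 1277 values of single genes kept their direction and side of the threshold, 35 no longer passed it and 4 newly passed it.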

Other observations

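An array carries a title and a description that name different animals and was placed in no group. Over the 500 most variable probes it correlated best with AU_iTBS 4 hippocampus (r = 0.831) and next with Y_iTBS 1 hippocampus (r = 0.803). Its signals were 4.98 for Ttr, 5.53 for Enpp2, 4.01 for Igf2, 2.12 for Aqp1, 1.49 for Folr1, -1.10 for Otx2, -1.50 for Sostdc1, -3.18 for Kcnj13, -4.92 for Kl and -3.50 for Clic6.

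The mean of the 10 genes, each centred on its own mean over the animals, was highest in the hippocampus of AU_iTBS 2 (2.62), AI_Sham 1 (2.15) and AI_Sham 3 (1.60) and lowest in that of Y_iTBS 3 (-1.43). In cortex the mean of the 8 genes was highest in AI_Sham 4 (1.82) and AU_iTBS 1 (1.78) and lowest in AI_iTBS 2 (-1.22).

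With Igf2 in hippocampus, 0 of 9 genes and 14 of 32500 probes were called (Aqp1 r = 0.74, adjusted p = 0.0968 from permutations, and 1 of 9 called by the parametric p). The permutations called 6 of 9 genes and 94 probes with the scan batch as a block. With group means removed they called 6 genes and 836 probes. Without Y_iTBS 2 or without AI_iTBS 1 they called 2 genes, with 28 and 30 probes. In the other alternatives the count stayed at 0. Over all 24 animals, 2 of the 13 leptomeningeal markers were called with Igf2 in hippocampus, with a median r of 0.68, against a median of 0.43 with Ttr.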
